A study of Arabidopsis thaliana with 96 samples.

Results

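Single gene starts are starts of protein-coding genes of *Arabidopsis thaliana* that have no gene starting on the opposite strand within the 1000 bp upstream of them. A peak of open chromatin was taken as a single-start peak when its summit, the base with the highest signal in the peak, lay within 500 bp of such a start on either side. Of 27444 protein-coding starts on the nuclear chromosomes, 21028 (76.6%) were single, and the other 6416 were divergent, with an opposite-strand start of any gene type close upstream. In the 24 peak lists used here, 125400 of 292794 nuclear peaks (42.8%) were single-start peaks, 43302 peaks lay only at divergent starts, and 124092 lay away from any protein-coding start.

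The lists come from ATAC-seq, in which a transposase inserts sequencing adapters wherever DNA is accessible in nuclei. They cover leaf tissue of the accessions (natural inbred lines) Ad-0, En-2, Hi, Mt, Og and Col-0, all grown at 22 °C with 16 h of light and 8 h of dark, with 4 files each. A further 4 files of Col-0 are labelled untreated, and their headers name naked DNA, so they were used as a background measured without chromatin. The whole series has 96 files of 23 accessions and untreated Col-0, and the accessions whose positions are not on reference coordinates were not analysed here. No accession carries a transgene or a treatment in the labels, so accession is the only difference the labels give between the 6 groups, and it cannot be told apart from depth or library quality.

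The files of an accession held 1463227 to 4754108 tags and 5564 to 21327 nuclear peaks, against 10822758 to 11043945 tags and 580 to 754 peaks in the untreated files. Pileups at single-start summits listed in both files of a pair differed by less than the sampling noise within an accession. The median dispersion index was 0.869 over 36 pairs, where 1 is counting noise alone, while pairs of different accessions had 2.13 to 5.89. The index covers summits matched within 50 bp with a summed pileup of at least 40. Low peaks and peaks listed in only 1 file of a pair are outside it. The 4 files were therefore counted as 1 sample, and each test ran over 6 accessions. The peaks of Ad-0, En-2, Hi and Mt lay in register with those of Og (median shift of -1 to -0.5 bp per 1 Mb window), whereas those of Col-0 were shifted by a median of 28.5 bp (-138 to 104 bp), which limits every Col-0 position below. All 5 mesophyll and leaf markers (RBCS1A, LHCB1.1, LHCB2.1, LHCA1 and PSAD-1) had open single starts in all 6 accessions. Of 9 markers of other leaf cell types, MYB60 and FAMA (guard cell), GL1 (trichome) and PDF1 (epidermis) had no peak in any file, ATML1 (epidermis) had one in 1 Mt file, GL2 (trichome) was open in En-2, SUC2 (companion cell) in Mt, KAT1 (guard cell) in Mt and Og, and TTG1 (trichome) in all but Ad-0. Of 10 markers of other organs, WOX5 and PLT1 (root), CRA1, LEC1 and FUS3 (seed) and AG and PI (flower) had no peak, but RHD6 (root) was open in Mt, AP3 (flower) in Mt and Og, and OLEO1 (seed), at a divergent start, in all 6.

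A gene start is where RNA polymerase II begins transcription. At active plant genes the stretch just before the start is usually kept free of nucleosomes, where transcription factors and the polymerase bind, while the first nucleosome sits inside the gene. Where genes stand head to head, a single open stretch can serve both. The rule leaves out partners upstream only: 983 single starts (4.67%) had an opposite-strand start within 500 bp downstream, so a peak there can belong to either gene. Of these, 66.7% were open in at least 1 accession, as defined below, against 48.0% of the other single starts.

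Reference promoter sequences of 7 genes are shown because the results below turn on their starts. Each runs from 250 bases before the start to 50 bases from it, 5′ to 3′ on the strand of the gene, in the TAIR10 build as given by RefSeq. These are the Col-0 reference bases, not those of the other accessions. Capitals mark matches, on either strand, to any of 10 short motifs, none of which holds another. The TATA box (TATAAA) was in 53.4% of all 21028 single-start promoters of this length, and the CCAAT box (CCAAT) in 50.7%. The I-box core (GATAAG) was in 14.3% and the W-box core (TTGACC) in 13.7%. Site II (TGGGCC) was in 12.5% and the evening element core (AATATCT) in 11.9%. The GAGA repeat (GAGAGAGA) was in 8.02% and the G-box (CACGTG) in 6.97%. The telo-box (AAACCCTA) was in 5.24% and the GCC-box (GCCGCC) in 2.16%. A match says only that the letters are there.

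CCA1 and GolS2 were open in every file of the 6 accessions. MIPS2, AT3G44190 and ABA2 were open in every accession but one, and SUB1 and GPRI1 in one accession alone.
CCA1 (chr2:19245341-19245640, plus strand): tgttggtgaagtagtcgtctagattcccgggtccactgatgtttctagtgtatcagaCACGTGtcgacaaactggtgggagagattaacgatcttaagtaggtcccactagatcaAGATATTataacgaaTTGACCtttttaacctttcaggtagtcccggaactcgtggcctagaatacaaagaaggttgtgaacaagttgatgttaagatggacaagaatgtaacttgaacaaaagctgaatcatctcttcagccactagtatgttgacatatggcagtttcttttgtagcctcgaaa
GolS2 (chr1:21207287-21207586, plus strand): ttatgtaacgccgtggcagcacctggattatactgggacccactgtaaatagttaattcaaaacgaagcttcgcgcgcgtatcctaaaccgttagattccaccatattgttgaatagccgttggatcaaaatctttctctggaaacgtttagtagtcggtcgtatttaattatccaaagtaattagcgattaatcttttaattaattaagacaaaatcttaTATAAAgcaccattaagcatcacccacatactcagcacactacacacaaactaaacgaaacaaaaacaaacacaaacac
MIPS2 (chr2:9454251-9454550, minus strand): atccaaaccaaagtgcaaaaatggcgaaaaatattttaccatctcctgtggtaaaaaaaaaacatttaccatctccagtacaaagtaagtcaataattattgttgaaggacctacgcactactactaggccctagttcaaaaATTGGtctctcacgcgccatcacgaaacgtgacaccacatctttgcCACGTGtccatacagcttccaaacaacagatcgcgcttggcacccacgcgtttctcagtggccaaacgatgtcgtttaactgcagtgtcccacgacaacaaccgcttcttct
AT3G44190 (chr3:15903579-15903878, minus strand): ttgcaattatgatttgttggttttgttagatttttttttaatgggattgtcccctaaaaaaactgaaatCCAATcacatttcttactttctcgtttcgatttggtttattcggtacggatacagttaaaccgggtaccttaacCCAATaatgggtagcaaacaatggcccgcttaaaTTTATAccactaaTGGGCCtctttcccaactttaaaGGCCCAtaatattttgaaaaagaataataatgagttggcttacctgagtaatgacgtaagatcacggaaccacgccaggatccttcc
ABA2 (chr1:19491601-19491900, minus strand): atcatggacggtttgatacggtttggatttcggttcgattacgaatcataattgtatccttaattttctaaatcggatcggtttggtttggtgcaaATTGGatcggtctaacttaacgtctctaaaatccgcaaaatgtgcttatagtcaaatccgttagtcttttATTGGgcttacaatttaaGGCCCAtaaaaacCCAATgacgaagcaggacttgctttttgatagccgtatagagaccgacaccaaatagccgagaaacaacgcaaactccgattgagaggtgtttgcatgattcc
SUB1 (chr4:5618017-5618316, minus strand): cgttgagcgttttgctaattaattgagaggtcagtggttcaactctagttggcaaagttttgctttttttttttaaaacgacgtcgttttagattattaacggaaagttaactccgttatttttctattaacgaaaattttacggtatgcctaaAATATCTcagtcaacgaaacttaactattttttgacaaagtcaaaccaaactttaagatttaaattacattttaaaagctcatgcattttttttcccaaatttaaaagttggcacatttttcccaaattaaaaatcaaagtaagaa
GPRI1 (chr2:8855052-8855351, plus strand): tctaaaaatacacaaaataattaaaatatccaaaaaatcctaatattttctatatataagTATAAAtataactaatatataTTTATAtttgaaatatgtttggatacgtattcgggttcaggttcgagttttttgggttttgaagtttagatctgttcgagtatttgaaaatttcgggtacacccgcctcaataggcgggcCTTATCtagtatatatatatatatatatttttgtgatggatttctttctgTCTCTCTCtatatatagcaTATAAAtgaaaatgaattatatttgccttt

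The first question was where the peaks lie relative to the start. Single-start summits gathered around the start and lay more often upstream of it than inside the gene in every accession. The median summit position was -53.5 bp in Ad-0, -39.9 bp in En-2, -36.5 bp in Hi, -26.5 bp in Mt, -18.0 bp in Og and -23.0 bp in Col-0, where negative values are upstream. In the untreated files the median was 72.1 bp, inside the gene. The share of summits upstream was 65.9% in Ad-0, 63.3% in En-2, 62.2% in Hi, 59.2% in Mt, 56.1% in Og and 56.7% in Col-0, against 39.9% in the untreated files. The excess over an even split averaged 10.6 ± 3.87 percentage points (SD, n = 6) and was above 0 in 6 of 6 accessions. An exact two-sided sign-flip permutation test gave p = 0.03125, the smallest p that 6 accessions allow, and 0.0547 after Benjamini-Hochberg adjustment over 7 tests, which does not pass the 0.05 threshold.

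The 50 bp just upstream of the start held more summits than any other 50 bp bin in each accession, 14.6% in Col-0 to 17.8% in Og. The first 50 bp inside the gene held 10.8% in Ad-0 to 14.4% in Og, and summits more than 300 bp downstream made up 2.25 to 2.88%. Summits more than 300 bp upstream were more frequent, at 7.12 to 11.4%. Within 100 bp of the start on either side lay 47.6% of summits in Ad-0 and up to 57.0% in Og, against 22.9% in the untreated files, whose few summits had no mode at the start.

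**Figure D1:**
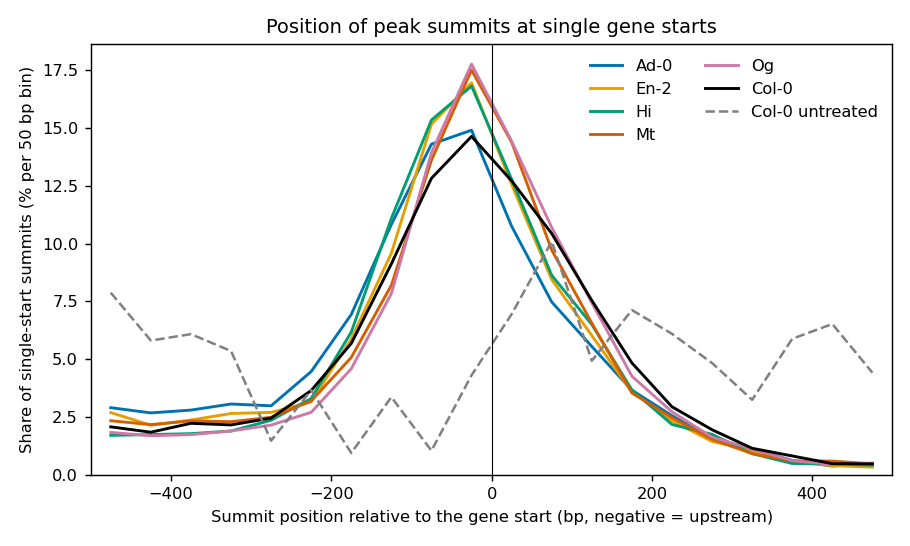
Share of single-start summits (%) in 50 bp bins by position relative to the gene start (bp, negative upstream), as the mean of 4 files for each of the 6 accessions and for untreated Col-0 (dashed). The 6 accessions peak in the bin just upstream of the start, at 14.6 to 17.8%, and the untreated files, with 40 to 59 single-start peaks each, do not.

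Taller peaks were wider and lay further upstream. When the single-start peaks of a file were divided into 4 groups of equal size by pileup, the height of overlapping extended tags at the summit, the median position in Ad-0 was -69 bp in the highest group and -45.25 bp in the lowest. In Col-0 it was -40.5 bp in the highest group and -12.75 bp in the lowest, and in Og -30.6 bp and -10 bp. The median width in the highest group was 305 bp in Ad-0 and 391 bp in Col-0, against 136.5 bp and 178.75 bp in the lowest. Peaks upstream of the start were also wider than those downstream, with medians of 211 and 198.5 bp in Ad-0, 243.5 and 222 bp in Mt and 281 and 261 bp in Og. Width and pileup share the same tags, so this relation is a description and was not tested. Ad-0 files had 1922700 to 1981452 tags and Mt files 1752896 to 1805096, with median positions of -53.5 bp and -26.5 bp. With 5564 peaks taken from each file, the share of summits upstream was 60.1% in Col-0 to 66.2% in Ad-0. It was 64.1% in Mt and 60.8% in Og in that setting. With all peaks it was 56.1% in Og to 65.9% in Ad-0. Why positions differ between accessions was not tested.

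The second question was whether single-start peaks differ in size from other peaks. Their medians of width and height lay below those of divergent-start peaks in all 6 accessions and close to those of peaks away from starts, and no difference passed the adjusted threshold. The median width of single-start peaks was 207 bp in Ad-0, 226 bp in En-2, 248 bp in Hi, 235 bp in Mt, 273 bp in Og and 274 bp in Col-0. For divergent-start peaks it was 214.5 bp in Ad-0, 245 bp in En-2, 250 bp in Hi, 266 bp in Mt, 295 bp in Og and 295 bp in Col-0. The difference averaged -17.0 ± 10.5 bp (SD, n = 6), was below 0 in 6 of 6 accessions, and ran from -30.75 bp in Mt to -1.75 bp in Hi, where the files of both classes overlapped. It had p = 0.03125 by the exact permutation test and 0.0547 after adjustment.

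Pileup is given in RPM, the pileup for each 1000000 tags of the file. Single-start peaks had a median of 8.32 RPM in Ad-0, 10.1 in En-2, 9.07 in Hi, 9.84 in Mt, 8.49 in Og and 7.12 in Col-0. Divergent-start peaks had 8.71 in Ad-0, 11.5 in En-2, 9.41 in Hi, 11.95 in Mt, 9.73 in Og and 8.40 in Col-0. The log2 ratio of single-start over divergent-start medians averaged -0.17 ± 0.09 (SD, n = 6) and was below 0 in 6 of 6 accessions, again with p = 0.03125 by the exact permutation test and 0.0547 after adjustment. With the same number of peaks taken from each file, this difference was -0.0389 and the width difference -7.81 bp, both in the same direction. Both had an unadjusted p of 0.03125 by the exact permutation test, as with all peaks, and an adjusted p of 0.0438. The adjusted p fell because the width difference from peaks away from starts also reached the smallest p. This setting kept the peaks with the lowest q-values and then the highest pileup, so it selects on peak strength. Why both differences were smaller was not tested.

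Against peaks away from starts, single-start peaks were wider in 4 accessions and narrower in Ad-0 and Hi, with a mean difference of 8.33 ± 13.2 bp (SD, n = 6, exact permutation p = 0.1875, adjusted p = 0.1875). Mt alone had a difference above 30 bp, at 32.25 bp, with medians of 235 bp at single starts and 203 bp away from starts. Some listed widths equalled the fragment length in the file header (120 to 162 bp over the files). In Mt these were 15.0% of single-start peaks and 23.2% of peaks away from starts. With only peaks wider than the fragment length, the Mt difference was 13.5 bp. With the same number of peaks from each file it was -13.25 bp. The log2 ratio of pileup in RPM averaged 0.05 ± 0.07 (SD, n = 6, exact permutation p = 0.125, adjusted p = 0.146). It was above 0 in 4 accessions and exactly 0 in En-2 and Hi, where the medians tied. With these ties 0.125 was the smallest p the test could give. The authors' fold enrichment over the local background gave a log2 ratio of 0.150, above 0 in 6 of 6 accessions (exact permutation p = 0.03125, adjusted p = 0.0438). With the same number of peaks from each file the width and pileup differences turned negative, to -9.44 bp and -0.0208 on the log2 scale. Peaks of at least 600 bp were rare in all classes. They made up 0.863% in Ad-0 to 3.10% in Col-0 at single starts. At divergent starts they made up 1.49 to 4.37%, and away from starts 1.23 to 4.52%. None of the 7 tests passed the adjusted threshold, and 4 had an unadjusted p under 0.05.

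**Figure D2:**
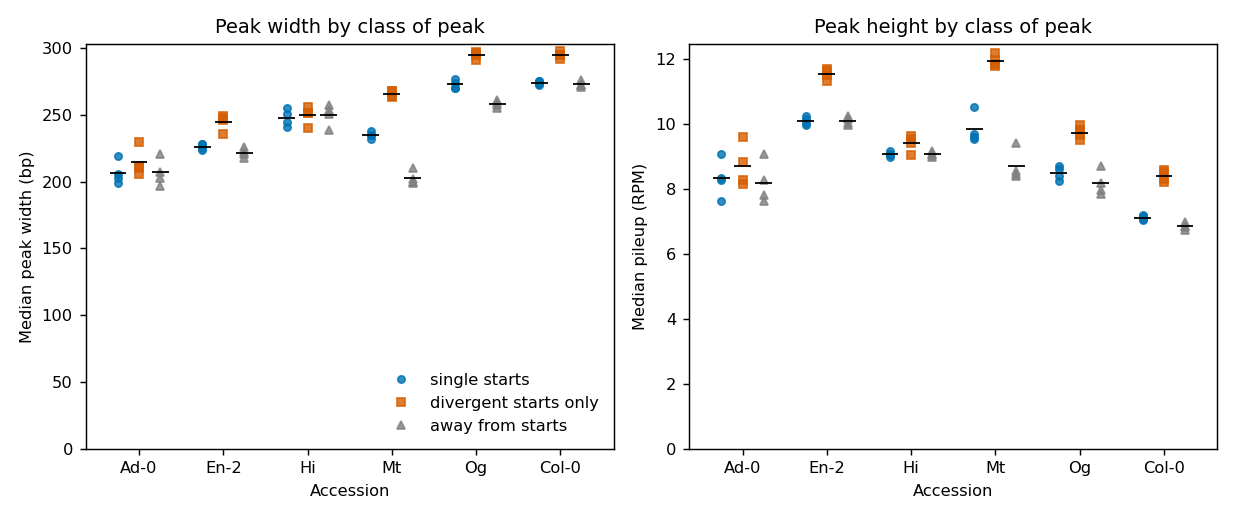
Median peak width (bp, left) and median pileup in RPM (right) of single-start peaks, divergent-start peaks and peaks away from starts in each accession, with 1 point per file and a bar at the mean of the 4 files. Single-start medians lie below divergent-start medians in every accession, by 1.75 bp in Hi to 30.75 bp in Mt.

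The third question was at how many genes the start was open. A start was called open in an accession when at least 2 of its 4 files listed a summit within 500 bp of it. Mt had most open single starts, 9171 (43.6% of 21028), followed by Col-0 with 6826 (32.5%), Og with 6815 (32.4%), En-2 with 5066 (24.1%), Hi with 2605 (12.4%) and Ad-0 with 2567 (12.2%). Files of an accession held 2368 ± 126 single-start peaks in Ad-0, 4698 ± 61.6 in En-2, 2404 ± 54.0 in Hi, 9005 ± 413 in Mt, 6375 ± 324 in Og and 6500.5 ± 64.3 in Col-0 (SD, n = 4 files each), against 40 to 59 in the untreated files. Neighbours in this order differed by more than the spread between files except Ad-0 and Hi, and Og and Col-0. The share of nuclear peaks that lay at single starts varied less, from 38.0% in Ad-0 to 44.8% in Og, and was 7.46% in the untreated files. The count of open starts moved with the number of listed peaks: with 5564 peaks taken from each file, 11.0 to 14.1% of single starts were open in the 6 accessions.

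The share of single starts that were open lay below that of divergent starts in each accession. Divergent starts were open at 24.2% in Ad-0, 43.7% in En-2, 23.8% in Hi, 63.5% in Mt, 51.5% in Og and 52.2% in Col-0. The difference averaged -16.9 ± 4.10 percentage points (SD, n = 6) and ran from -19.9 in Mt to -11.4 in Hi (exact permutation p = 0.03125, adjusted p = 0.0547, which does not pass). A peak between head-to-head genes can count for both starts. At the limit of the rule the 2 classes had close values: 435 single starts with an opposite start 1001 to 1100 bp upstream were open in at least 1 accession at 51.0%, and 477 divergent starts with one at 901 to 1000 bp at 48.6%. Of the divergent starts with a partner within 250 bp, 83.7% were open in at least 1 accession, so the classes differed most where the partner was close.

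Of all single starts, 1609 were open in all 6 accessions (7.65%), 6003 in 2 to 5 (28.5%), 2673 in 1 (12.7%) and 10743 in none. At least 1 accession had 10285 of them open (48.9%). The 910 single starts with a summit in all 24 files made up 4.33%. Among divergent starts 17.0% were open in all 6 accessions and 68.2% in at least 1. An untreated summit lay at 42 single starts in at least 2 of the 4 untreated files, and 11 of these were open in all 6 accessions.

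Most starts open in a single accession were those of the accession with most peaks. Mt held 2013 of the 2673, Col-0 297, Og 256, En-2 89, Ad-0 10 and Hi 8. Their peaks were low: in Mt they had a median of 5.04 RPM, against 19.98 for the starts open in all 6. A start listed in all 4 files of an accession and in none of the other 20 was found 288 times for Mt, and in 61 of these the pileup expected at the depth of every other file was at least 2 times the lowest pileup listed there. The same held for 14 of 61 such starts in Col-0, 4 of 21 in Og and 1 of 1 in En-2, and Ad-0 and Hi had no such start. In the other direction, Ad-0 was the only accession not open at 619 single starts and Hi at 650, against 12 to 24 in the other 4. Starts listed in all 20 files of the others and in none of its own numbered 109 for Ad-0, 92 for Hi and 1 to 4 for the other accessions.

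Ad-0 and Hi had nearly the same number of open single starts but shared 1687 of them, 65.7% of those of Ad-0 and 64.8% of those of Hi. Each shared more with Mt, 96.2% of Ad-0 starts and 96.4% of Hi starts. Mt, with most open starts, takes in most of any other accession. Og and Col-0, also equal in number, shared 83.4% and 83.3% of their starts.

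**Figure D3:**
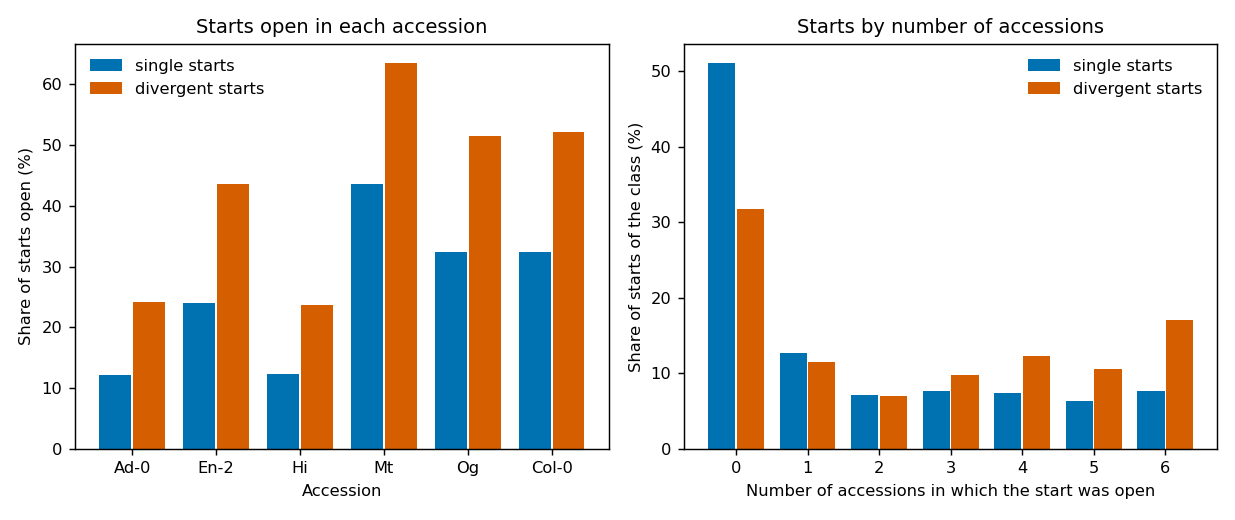
Share of single and divergent starts (%) open in each accession (left) and share of single and divergent starts by the number of accessions in which they were open (right). Single starts were open at 12.2 to 43.6%, below divergent starts in each accession, and 7.65% of single and 17.0% of divergent starts were open in all 6.

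Promoters of starts open in all accessions held some motifs more often than those of starts open in none. Site II, a motif bound by TCP factors and known from promoters of ribosomal protein and cell cycle genes, was in 26.6% of promoters open in all 6 accessions, 22.6% of those open in 2 to 5, 13.7% of those open in 1 and 4.39% of those open in none. The G-box, bound by bZIP and bHLH factors of light and abscisic acid responses, was in 20.4%, 9.08%, 5.91% and 4.05% of the same groups. The CCAAT box, bound by nuclear factor Y, was in 56.2% of those open in all 6 and 46.6% of those open in none. The TATA box went the other way, with 47.9% and 56.6%, and so did the telo-box, with 3.85% and 5.93%.

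Promoters open in all 6 accessions were also richer in G and C, with a median of 35.3% against 30.7% in those open in none. Among promoters with over 34% GC, site II was in 33.7% of those open in all 6 and 7.91% of those open in none, and the G-box in 28.5% and 6.54%. Among those with 28% GC or less, site II was in 6.32% and 1.82%, whereas the G-box was in 1.15% and 2.01%. In this band the G-box was in 2.93% of promoters open in 2 to 5 accessions and 4.69% of those open in 1, and 174 promoters of this band were open in all 6. These shares are a description over genes and were not tested.

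Read from the motif, 82.0% of 2623 single starts with site II were open in at least 1 accession and 16.3% in all 6. Of 1466 with a G-box, 70.3% were open in at least 1 and 22.4% in all 6. Starts with both numbered 215, and 93.5% were open in at least 1 and 36.3% in all 6, against 42.6% and 5.43% of the 17154 with neither. Where a promoter open in all 6 accessions held 1 G-box, the summit lay within 100 bp of it at 71.0% of 262 starts in Col-0 to 76.0% in En-2. For site II it was 57.2% of 271 starts in Col-0 to 69.7% in Ad-0. Motifs were searched no further than 250 bp upstream, so they could not lie far from most summits.

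**Figure D4:**
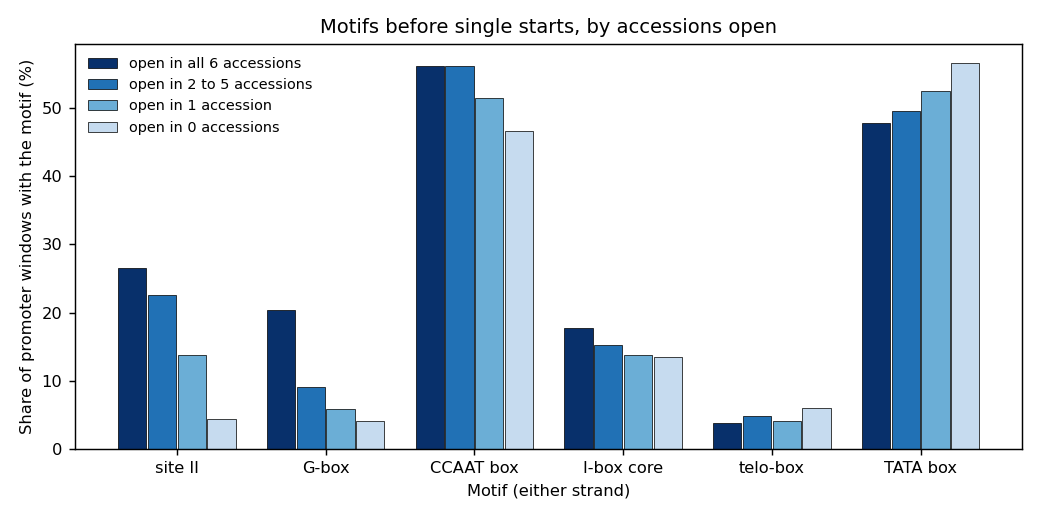
Share of single-start promoter windows (%) that hold each of 6 motifs on either strand, for starts open in all 6, in 2 to 5, in 1 and in 0 accessions (dark to light). Site II is in 26.6% of windows open in all 6 and 4.39% of those open in 0, the G-box in 20.4% and 4.05%, and the TATA box in 47.9% and 56.6%.

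Many single starts follow closely on the end of another gene on the same strand. For 5542 of them such an end lay within 500 bp upstream. They were open more often than the other single starts in En-2, Mt, Og and Col-0 and less often in Ad-0 and Hi. In Mt 48.5% of close-end starts and 41.9% of the others were open, and in Hi 11.7% and 12.7%. The difference averaged 2.69 ± 3.09 percentage points (SD, n = 6, exact permutation p = 0.125, adjusted p = 0.146). With summits counted within 1000 bp of the start the sign of this mean turned, to -0.304 percentage points, and with the same number of peaks taken from each file it was 0.259 (adjusted exact permutation p = 0.594).

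Gene groups are described beside single starts at large, of which 7.65% were open in all 6 accessions and 48.9% in at least 1. Of 31 light-harvesting, photosystem and Rubisco small subunit genes, 18 were open in all 6, 12 in 2 to 5, 1 in one and none in no accession. RBCS1A (chr1:25048158-25049667, minus strand), which encodes a small subunit of the carbon-fixing enzyme Rubisco, had 19.99 RPM in Mt, the lowest accession, a median of 25.2 over the accessions and 48.3 in En-2, the highest. These are the pileups of the highest peak at the start, and the genes that follow are given in the same way. Its summit lay inside the gene, at a median of 252 bp. PSBO1, a subunit of the oxygen-evolving complex of photosystem II, had 14.0 RPM in Hi, a median of 21.2 and 46.2 in En-2, with summits at -101 to 13.5 bp, but a tRNA gene and repeated bases also lie in its window.

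Of 8 clock genes, 5 were open in all 6 accessions, 2 in one and 1 in none. CCA1 (chr2:19245591-19248915, plus strand) and LHY, related Myb factors that peak at dawn and repress evening genes, had summits at nearly the same distance. CCA1 had 18.8 RPM in Hi, a median of 33.1 and 45.7 in En-2, at -217 to -151 bp, and the G-box printed above begins at -193. The protein-coding gene AT2G46820, on the same strand, also lies in the CCA1 window, so a peak there can belong to either gene. LHY had 12.8 RPM in Og, a median of 17.8 and 46.8 in En-2, at -203.5 to -163.5 bp. PRR9, a repressor of CCA1 and LHY, had 10.1 RPM in Hi, a median of 19.3 and 28.8 in En-2, at -168.5 to -142.5 bp. TOC1 and PRR5 were open in all 6 as well, ZTL and ELF3 in one, and GI in none.

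En-2 had the highest pileup in RPM at RBCS1A, PSBO1, CCA1, LHY and PRR9, and also the lowest tag totals, 1463227 to 1502898 per file. Pileup in RPM was not scaled for the share of tags in peaks, so levels of a gene between accessions are given as values and were not tested.

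Genes of basic cell functions were next. Of 28 ribosomal protein genes 4 were open in all 6 accessions, 17 in 2 to 5, 5 in one and 2 in none, so 92.9% were open somewhere. Core histones had 5 of 11 open in all 6, tubulins and actins 5 of 17 and proteasome subunits 3 of 26. The actin gene ACT7 had 15.1 RPM in Hi, a median of 19.4 and 24.8 in Mt, with a summit at -50.25 to -17.75 bp in all accessions. The proteasome gene PBG1 had 17.3 RPM in Ad-0, a median of 41.0 and 51.7 in Og, and the summit lay 49.75 to 126 bp inside the gene. AT1G56440 starts on the other strand just inside PBG1, so this summit lies upstream of that gene, and the peak can belong to either.

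Of all single starts 51.1% were open in none of the 6 accessions, and auxin and WRKY genes were close to this share. Of 36 auxin response genes 8 were open in all 6 accessions and 18 in none. All 8 were Aux/IAA repressors, among them IAA16, IAA2 and IAA9, and the auxin response factor open most widely was ARF10, in 5 accessions. Of 60 WRKY factors, known for defence, 9 were open in all 6 and 31 in none. Of 25 ethylene response and CBF/DREB factors 8 were open in all 6 and 6 in none. CBF4, an activator of drought-response genes, had 16.7 RPM in Ad-0 and Hi and up to 26.2 in Og, at -325 to -225 bp. Of 24 heat shock proteins and factors 3 were open in all 6, and all 3 (HSFB2A, HSFC1 and HSFA3) encode factors with summits 138 to 326 bp inside the gene. Another gene also lies in the window of each, an lncRNA gene for HSFC1.

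For most genes of other tissues and stages no accession was open. Of 77 MADS box genes 2 were open in all 6 accessions and 64 in none, of 125 small peptide genes of pollen and egg cell families 3 and 110, and of 14 seed storage and late embryogenesis genes 1 and 11. Of 36 cyclins and CDKs, genes of the cell cycle, 3 (8.33%) were open in all 6 and 38.9% in at least 1, near the shares of all single starts. AGL44 (ANR1), a MADS box factor known for the nitrate response of roots, had 16.1 RPM in Ad-0, a median of 58.5 and 70.0 in Mt, at -339.5 to -202.5 bp. LEA14, a late embryogenesis protein, had 13.8 RPM in Mt, a median of 31.2 and 102 in En-2, at -481.5 to -459.5 bp, near the edge of the 500 bp window, and was listed in 22 of the 24 files. SVP, a MADS box repressor of flowering, was open in all 6 with lower values, 6.02 RPM in Ad-0 to 12.4 in Mt, and FLC, the flowering repressor of vernalization, was open in one. As the lists were chosen with results known, these counts describe the genes and were not tested.

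Of the 10 highest single-start genes without an untreated summit, 6 had the median summit upstream of the start. GolS2 (chr1:21207537-21209635, plus strand), a stress-inducible galactinol synthase of raffinose synthesis, had 64.7 RPM in Mt, a median of 90.2 and 123 in En-2. Its summits lay at -344 to -294.5 bp, beyond the 250 bases printed above. EMB2770, annotated as a splicing factor, had 38.7 RPM in Ad-0, a median of 83.3 and 122 in Hi at -154 to -147 bp, and a tRNA gene lies in its window. STOP1, a zinc finger factor of acid and aluminium tolerance, had 39.8 RPM in Ad-0, a median of 64.8 and 85.0 in En-2. An lncRNA gene on the other strand also lies in the STOP1 window. NF-YB2, a subunit of the factor that binds CCAAT, had 46.0 RPM in Mt, a median of 54.0 and 99.97 in En-2, over a peak of 714 to 839 bp, and an lncRNA gene starts on the other strand in its window. SIG4, a plastid sigma factor, had 27.6 RPM in Hi, a median of 43.9 and 97.8 in En-2 at -371 to -274.5 bp. Accessions with the lowest value differed between these genes.

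Some of the highest peaks lay on sequence with copies elsewhere. AT2G01021 (chr2:6571-6672, plus strand) had 99.3 RPM in Og to 272 in En-2 over the 5 accessions other than Mt, with summits at 271.5 to 324 bp. The Mt value of 72.5 RPM belongs to a narrower peak, at 10 bp, and is not compared with them. Of the 36-base words in this window, 95.9% also occur elsewhere in the nuclear genome. Among starts with an untreated summit, AT3G20362 had 191 RPM in Mt to 592 in Ad-0 over the 5 accessions other than Col-0, with summits at 445 to 474 bp, against 156 to 251.3 in the untreated files, and 44.1% of its words also occur in the chloroplast genome. The Col-0 value of 68.3 RPM belongs to another peak, at -13.25 bp, and is not compared with them. AT2G07722 and AT2G07629 share 92.5% and 100% of their words with the mitochondrial genome, and AT5G10340 shares 46.2% with other nuclear sites. Tags from the copies and from these starts cannot be told apart.

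At the genes named next 1 accession stood against the other 5, and they were chosen for that. MIPS2 (chr2:9451605-9454300, minus strand), which makes myo-inositol phosphate, had no peak in the 4 Hi files, against 19.9 RPM in Ad-0, 25.4 in Col-0, 27.97 in Og, 40.2 in Mt and 52.3 in En-2. Its summits lay at -52.25 to -29 bp, beside the G-box at -62. The same peak also counted for AT2G22241, which overlaps MIPS2 on the other strand. MSRA5, a methionine sulfoxide reductase family member (chr2:7840037-7841823, plus strand), had none in Ad-0, against 26.4 RPM in Mt to 36.03 in Col-0.

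AT3G44190 (chr3:15901714-15903628, minus strand), annotated as an oxidoreductase, had no listed peak in Ad-0 either, against 19.2 RPM in En-2 to 32.0 in Og. The reference promoter has site II at -60 and -37, and the summits of the other accessions lay at -13 to 7.75 bp, apart from Col-0 at 131 bp. ABA2 (chr1:19489794-19491650, minus strand), an enzyme of abscisic acid synthesis, was not listed in En-2, against 7.42 RPM in Ad-0 to 19.6 in Col-0. Its summits lay at -58.5 bp in Mt, near the site II at -66, and further upstream, at -168.5 to -94.75 bp, in the other 4. SYP41, a syntaxin of the trans-Golgi network (chr5:9488133-9491092, minus strand), was not listed in Mt, the accession with most peaks, against 8.06 RPM in Ad-0 to 25.996 in Og. Other protein-coding genes also lie in the windows of ABA2 and SYP41. AT1G52342, on the same strand, ends 117 bp upstream of ABA2, and AT5G26990 lies on the other strand at SYP41. A peak there can belong to either gene. None of the windows of MIPS2, MSRA5, AT3G44190, ABA2 and SYP41 had a 36-base word found elsewhere. Whether the reference sequence is present at these starts in the accession with no peak was not tested.

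Other starts were listed in 1 accession alone. SUB1 (chr4:5615921-5618066, minus strand), annotated as a calcium ion binding protein, was listed in En-2 alone, with 11.3, 13.0, 11.4 and 14.2 RPM in its 4 files and a summit at -249.75 bp. AT5G25290, an F-box gene, was listed in Mt alone with 20.2, 21.1, 25.5 and 23.7 RPM. GPRI1 (GLK1, chr2:8855302-8857758, plus strand), a GARP factor that activates chloroplast genes, was listed in Mt alone with 14.6, 12.6, 13.3 and 22.6 RPM at 27.75 bp, and 21.8% of its words occur elsewhere. Copies were more frequent in the windows of AT3G50250, listed in Og alone (68.7% of words elsewhere in the nuclear genome), and of AT2G07652, listed in Col-0 alone with 43.3, 46.5, 47.5 and 44.4 RPM (96.3% in the mitochondrial genome).

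**Figure D5:**
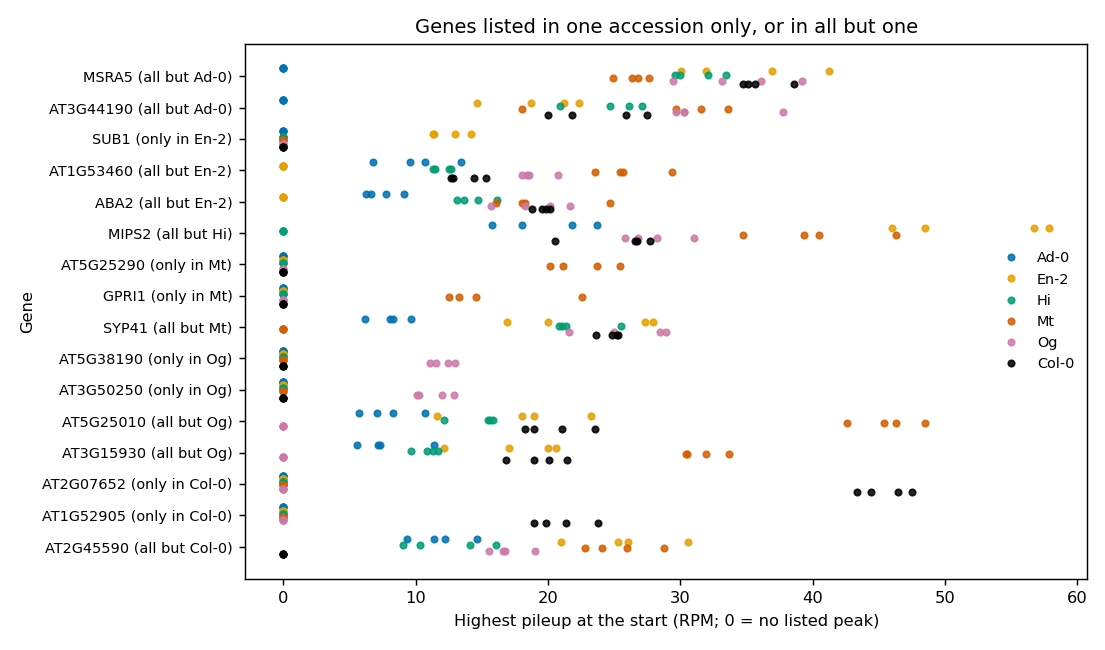
Highest pileup in RPM at the start in each file, for single-start genes listed in all files of 1 accession and no other, or in all files of the other 5 and not in that one. Points at 0 mean no listed peak. MIPS2 lies between 15.8 and 57.9 RPM in 5 accessions and has no listed peak in Hi, and SUB1 lies between 11.3 and 14.2 in En-2 alone.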

How the data were processed

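Per the labels and file headers, the authors mapped ATAC-seq reads of leaf samples with Bowtie 1.2.2 and called peaks in each file with MACS2 2.1.2, without a control, keeping duplicate tags, at a q-value cutoff of 0.05. Each deposited list gives the width and summit of a peak, its pileup (signal of extended tags, not scaled between files), its fold enrichment over the local background, and the −log10 of its p-value and q-value. Peaks were taken as deposited, and pileup was scaled to 1000000 tags (RPM) with the tag total in the file header (1463227 to 4754108 per file, with a lowest listed pileup of 6 to 14). Dividing by all tags leaves differences in the share of tags in peaks. Lists hold called peaks only, so a start with no peak is not shown to be closed, and no interval was computed for an unlisted peak.

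Gene starts, ends and promoter sequences came from the RefSeq annotation of TAIR10, whose nuclear chromosome lengths match. Opposite-strand starts included genes and pseudogenes of any type. Single starts, peak classes and open starts (a summit within 500 bp in at least 2 of 4 files) were set as in the report, with Python 3.11.15, NumPy 2.4.6 and pandas 2.3.3. Medians per file were averaged to 1 value per accession, since the labels number the files of an accession but do not say that they are separate plants, and the p-values measure only the spread between 6 accessions. The 7 tests were exact two-sided sign-flip permutation tests with Benjamini-Hochberg adjustment, checked on simulated data. No count model was used, since the files hold no counts per gene. Alternatives were windows of 250 and 1000 bp, an opposite start within 500 bp or of protein-coding genes alone, a q-value of 0.001, and the same number of peaks per file. Others were wider peaks alone, fold enrichment, other definitions of open, leaving out files, and each replicate number tested alone. Col-0 was left out only for the counts of starts by number of accessions open, and no test was run without it.

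The genes named were, by rule, the 10 highest listed in all 24 files without an untreated summit, the 5 highest with one, up to 2 for each accession listed there alone or in all the others, under a depth condition of 2 times the lowest listed pileup, and up to 3 highest of each gene list. Other list members, and the starts near tRNA genes, were named after their values were seen. The members and lists were chosen with earlier results of these data known.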

Additional observations from a re-analysis of the deposited data

Results flagged for a closer look

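Among 48 sets of 4 files, 7 had 1 file that stood apart from the other 3 by Dixon's test, where chance gives about 1 in 20. For the number of single-start peaks these were Ad-0 replicate 1, with 2181 against 2406 to 2447 in the other Ad-0 files, Hi replicate 2, with 2324 against 2422 to 2442, and Mt replicate 3, with 8393 against 9151 to 9299. Mt replicate 3 also had a median pileup of 10.5 RPM (pileup for each 1000000 tags), against 9.53 to 9.70 in the other Mt files. In En-2 replicate 3 the median summit position was -37 bp, against -41 to -40.5 bp, and 62.9% of summits lay upstream, against 63.4 to 63.5%. In Ad-0 replicate 4, 37.8% of nuclear peaks lay at single starts, against 38.1% in the other 3.

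The open share of single starts with a gene end close upstream, minus that of the other single starts, differed in sign between accessions. Averaged over files it was -0.709 percentage points in Ad-0 and -1.07 in Hi, below 0 in all 4 files of each. It was 1.86 in En-2, 6.21 in Mt, 3.87 in Og and 4.36 in Col-0, above 0 in all 4 files of each. Ad-0 and Hi were also the accessions with the fewest listed peaks. The difference between accessions was not tested.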

How the results depend on the processing

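Of 147 values recomputed under alternatives, 134 kept their direction, their side of the threshold and, for counts, stayed within 1.5 times. With the same number of peaks per file, the differences of single from divergent starts or peaks were -14.2 percentage points in open share, -7.81 bp in width and -0.0389 in log2 pileup, and the upstream excess was 13.2 percentage points, each with an adjusted p of 0.0438 by the exact permutation test. Their unadjusted p was 0.03125 by that test, as with all peaks. The adjusted p fell because the width difference from peaks away from starts also reached this smallest p. In that setting the differences from peaks away from starts reversed, to -9.44 bp (adjusted exact permutation p of 0.0438) and -0.0208 (log2), the close-end difference was 0.259 percentage points (2.69 with all peaks), and the counts fell to 2417 single-start peaks per file (5225 with all peaks), 2363 starts open in 2 to 5 accessions and 1247 in 1, since fewer peaks entered. With fold enrichment in place of pileup, the log2 ratios were -0.178 over divergent-start peaks and 0.150 over peaks away from starts, both with an adjusted p of 0.0438 by the exact permutation test. Over divergent-start peaks the unadjusted p stayed at 0.03125. Its adjusted p fell because the ratio over peaks away from starts also reached this smallest p. That ratio was 0 in En-2 and Hi with pileup, and 0.107 and 0.109 with fold enrichment. Why the 2 measures differ was not tested. With a window of 1000 bp the close-end difference reversed to -0.304 percentage points, and the cause was not tested. Requiring all 4 files left 910 starts open in all accessions.

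Without each replicate number in turn, the open share difference was -16.6 to -16.5 percentage points, the width difference -17.5 to -16.25 bp against divergent-start peaks and 7.61 to 9.17 bp against peaks away from starts, the log2 pileup ratios -0.179 to -0.167 and 0.0468 to 0.0561, the upstream excess 10.5 to 10.6 and the close-end difference 2.37 to 2.46 percentage points. Single-start peaks per file numbered 5191 to 5266, and starts open in all, 2 to 5 and 1 accession 1407 to 1442, 5623 to 5728 and 2570 to 2702.

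With the replicate number as a block the same 7 differences were -16.3, -17.0, -0.17, 8.33, 0.05, 10.6 and 2.42 in the order of the tests in the report (open share, width and pileup against divergent, width and pileup against away, upstream excess, close end), and it changed no call. Files with the same number in different accessions did not deviate together (median correlation 0.0353, from -0.457 to 0.329 over 15 pairs of accessions), so they share only a number. The lowest pileup listed differed between accession files (6 to 14), Col-0 positions carry the shift given in the report, and with 6 accessions at least 5 of the 7 tests must reach the smallest p for any to pass after adjustment.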

Other observations

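Single starts with a tRNA gene in the 500 bp upstream, noticed after the values were seen, were mostly open. Of 84 such starts, 43 (51.2%) were open in all 6 accessions and 78 (92.9%) in at least 1, against 7.65% and 48.9% of all single starts. The ribosomal protein genes RPL12-A, RPL12-C and RPL16B, the highest of their list, and PSBO1 are among the genes with a tRNA gene in the window. A tRNA gene is transcribed by RNA polymerase III, and a peak within 500 bp of the start can belong to either gene, which was not tested. With an lncRNA gene in the same stretch 8.55% of 433 starts were open in all 6 accessions, and with a pseudogene 1.64% of 122.

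A TATA box on the strand of the gene, 16 to 50 bases before the start, was in 7.02% of single-start promoters open in all 6 accessions and 10.5% of those open in none.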
